A study of Mus musculus with 14 samples.

Results

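Lipogenesis and cholesterol synthesis were described in RNA of the mouse intervertebral disc (IVD) through 34 genes, taken by symbol from the 55487 genes of the gene count table with no threshold on any measured value. They comprised 4 regulators (*Srebf1*, *Srebf2*, *Mlxipl* and *Insig1*), 13 genes of the fatty acid branch and 17 of the sterol branch. All 34 had counts, and 32 passed the filter on low counts and were tested. The study compared tail discs of male mice from 2 models of type 2 diabetes with their controls, and each of the 14 libraries held 5 discs pooled from 1 mouse. The db/db mice (n = 3) were homozygous for a mutant leptin receptor, and their db/+ littermates (n = 3) carried the same mutation on 1 copy. Both db groups were 12 weeks old and untreated. The STZ-HFD mice (n = 4) were C57BL/6J mice fed a high-fat diet for 4 to 6 weeks from 12 weeks of age, injected once with 100 mg/kg of streptozotocin (STZ, a toxin of the insulin-producing cells) and kept on the diet for 12 more weeks. The fat content of this diet was given as 60% of calories in the methods and 80% in the sample labels. The Con+Veh mice (n = 4) were C57BL/6J mice given chow with 13% of calories from fat and the citrate buffer alone. The db mutation acts in every tissue, gene counts do not check a point mutation, and age, diet and cohort cannot be told apart where the 2 models are compared.

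Fatty acids are built in the cytosol from acetyl-CoA, which ATP citrate lyase (*Acly*) makes from citrate, acetyl-CoA carboxylase (*Acaca*, *Acacb*) turns into malonyl-CoA and fatty acid synthase (*Fasn*) joins into chains. Elongases (*Elovl5*, *Elovl6*) and desaturases (*Scd1*, *Scd2*, *Fads1*, *Fads2*) then lengthen the chains and add double bonds. Cholesterol is made from the same acetyl-CoA through mevalonate, squalene and lanosterol. SREBP transcription factors (*Srebf1*, mainly for the fatty acid branch, and *Srebf2*, mainly for the sterol branch) induce these genes when sterols are scarce or insulin is high, *Insig1* holds them back in the endoplasmic reticulum, and ChREBP (*Mlxipl*) responds to carbohydrate. Adipose tissue, liver, skin glands and myelin-forming cells are known for high activity of these pathways.

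Total counts ranged from 16076908 to 58943169 per library, of which 28.1% to 60.2% lay on ribosomal RNA genes. Levels are given as CPM, counts per 1e+06 of a library's total over the tested genes scaled by its TMM factor, a correction for differences in composition. The STZ-HFD replicate 1 library stood apart, with a count on 42626 genes against 25194 to 29924 in the other libraries and the lowest total. It and Con+Veh replicate 1 had the lowest weights in the fit (0.379 and 0.275), and values without both are given for the members named with them. As a check of the tissue, 13 disc and cartilage marker genes summed to 51590 to 75460 CPM in db/+, 24870 to 58090 in db/db, 5119 to 18380 in Con+Veh and 1881 to 3664 in STZ-HFD. Skeletal muscle markers were present in all libraries (3220 to 25680 summed CPM over 10 genes), as were adipocyte markers (1079 to 8364 over 12 genes).

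Promoter sequence is shown for members whose values the account turns on and whose RefSeq start lay next to the start of the gene in GENCODE M21. RefSeq windows (GRCm38.p6, 250 bases before to 50 after a start) were held for 27 of the 34 members. The windows were searched on both strands for the sterol regulatory element TCACNCCAC, for CCAAT (the site of NF-Y factors) and for the E-box CACGTG. The letters CCAAT lay in 37.4% of all 32851 windows, in 81.2% of the 16 sterol windows, in 63.6% of the 11 fatty acid windows and in 71.4% of the 7 regulator windows. TCACNCCAC lay in 1.24% of all windows and in those of 2 members, *Hmgcs1* and a second start of *Mlxipl*. These matches describe letters and show no binding. The 120 bases before the start of the gene in GENCODE M21 are given 5′ to 3′ on the strand of the gene, with CCAAT (also as its reverse complement ATTGG) and CACGTG in capitals. They lie at chr11:120824548-120824667 (-) for *Fasn*, chr9:77917244-77917363 (+) for *Elovl5*, chr5:135089770-135089889 (+) for *Mlxipl*, chr8:122443423-122443542 (-) for *Mvd* and chr10:76531468-76531587 (+) for *Lss*. The *Lss* stretch ends 17 bases before the RefSeq start, and that of *Elovl5* 1 base before it. In *Fasn*, a forward and a reverse CCAAT share 2 bases. The *Hmgcs1* stretch, chr13:119690194-119690242 (+), has its TCACNCCAC match in capitals instead, beginning 137 bases before the RefSeq start.
Fasn: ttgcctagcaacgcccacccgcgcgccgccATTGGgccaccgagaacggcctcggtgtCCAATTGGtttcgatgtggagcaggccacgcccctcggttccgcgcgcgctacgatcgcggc
Elovl5: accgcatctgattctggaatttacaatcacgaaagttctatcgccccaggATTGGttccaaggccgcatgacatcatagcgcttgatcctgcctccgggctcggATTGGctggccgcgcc
Mlxipl: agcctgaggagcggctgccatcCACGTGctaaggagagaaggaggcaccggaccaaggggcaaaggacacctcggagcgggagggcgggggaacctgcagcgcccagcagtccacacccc
Mvd: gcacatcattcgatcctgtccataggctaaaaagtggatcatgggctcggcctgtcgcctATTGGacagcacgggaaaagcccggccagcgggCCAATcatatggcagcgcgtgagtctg
Lss: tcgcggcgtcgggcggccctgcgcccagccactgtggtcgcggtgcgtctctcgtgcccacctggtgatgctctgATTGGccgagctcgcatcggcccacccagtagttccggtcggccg
Hmgcs1: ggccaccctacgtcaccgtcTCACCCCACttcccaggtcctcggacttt

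The members spanned more than 3 orders of magnitude in level per exon length. *Scd1*, the main stearoyl-CoA desaturase, was highest in all 4 groups, at 176 ± 43.7 reads per kilobase of exon and per 1e+06 counts (RPKM, SD, n = 3) in db/+, 471 ± 253 (n = 3) in db/db, 222 ± 91.4 (n = 4) in Con+Veh and 240 ± 179 (n = 4) in STZ-HFD. *Scd2* was next in every group, between 37.7 ± 11.1 RPKM in STZ-HFD and 56.7 ± 22.6 in Con+Veh. *Hmgcs1*, which makes HMG-CoA, stood highest of the sterol branch in each group, from 5.81 ± 1.14 RPKM in db/+ to 9.73 ± 2.36 in db/db, and its Con+Veh and STZ-HFD means (8.81 ± 4.41 and 7.31 ± 2.09) lay within the spread of either group. At the other end were *Idi1* and *Fdps*, which make and join the isoprenoid units. *Idi1* had 1 to 61 counts per library and *Fdps* 5 to 64, so they fell below the filter of more than 1 CPM in 3 libraries. With the looser filter of filterByExpr, *Idi1* was at 0.56 in the db contrast and -1.04 in the STZ contrast (adjusted p = 0.745 and 0.632) and *Fdps* at -0.70 and -1.27 (adjusted p = 0.666 and 0.524) on the log2 scale. Exon bases shared with a neighbouring gene reached 26.7% in *Fdps*, 18.3% in *Fdft1* (with *Ctsb*) and 12.1% in *Hmgcs1*, and reads there can be credited to either gene. *Scd1* and *Scd2* are close copies, and how reads that match several genes were counted is not given in the sources used here.

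**Figure D1:**
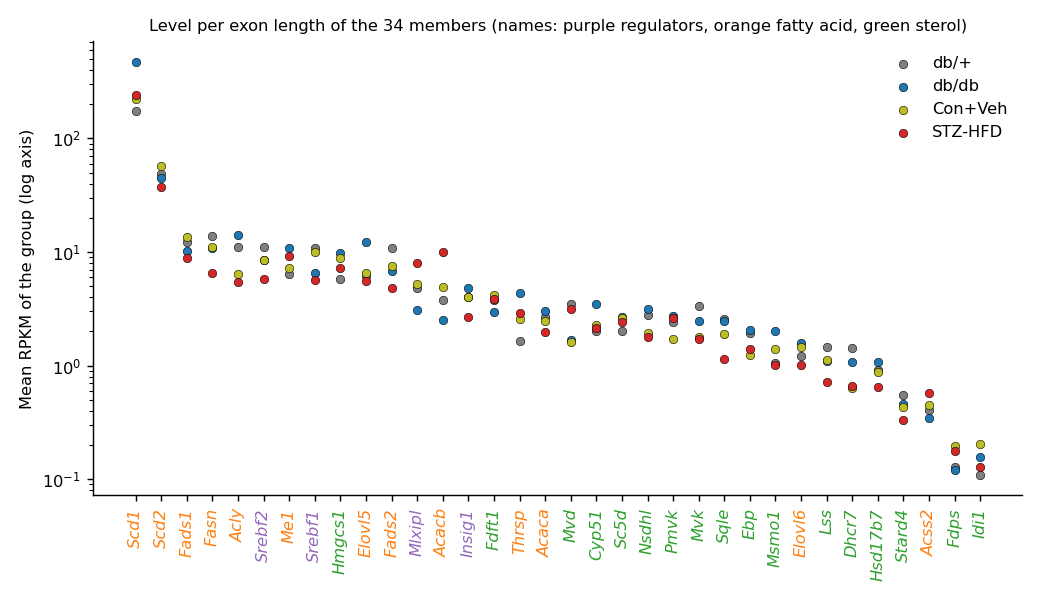
Mean RPKM of each group (log axis) for the 34 members, ordered by their mean over the groups, with names coloured by branch. *Scd1* is highest in every group (471 RPKM in db/db), and *Idi1* and *Fdps* are the lowest, at 0.206 RPKM or less.

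Among the regulators, none passed the test in db/db, where a call needs a Benjamini-Hochberg adjusted p below 0.05 over 16915 genes (limma, voomWithQualityWeights) together with a log2 fold change of 1 or more in size. At an unadjusted p under 0.05, 2 were lower and 0 higher, where 10.4% and 10.7% of all genes were. The edgeR test called 0 members and also 0 of all genes in the db contrast. With limma, 1.66% (281) of all genes were called in the db cohort and 2.61% (441) in the STZ cohort. These counts varied with the library left out. In the db contrast they fell whichever db library was omitted. They were 96 higher and 47 lower without db/+ replicate 1, and 12 and 9 without db/+ replicate 2. In the STZ contrast 3 were higher and 14 lower without Con+Veh replicate 3, 4 and 14 without Con+Veh replicate 4, and 3 and 15 without STZ-HFD replicate 3. Without STZ-HFD replicate 4 they were 64 and 100. Omitting replicate 1 or 2 of Con+Veh or STZ-HFD raised the count of both directions together, to 274 and 368 without Con+Veh replicate 2. *Srebf1* had 66.3, 48.02 and 67.9 CPM in the db/+ libraries and 27.99, 36.02 and 45.9 in db/db, with a log2 fold change of -0.71 (SE 0.31, adjusted p = 0.204). Each db/db value lay below each db/+ value. *Srebf2* had 81.2, 75.1 and 80.2 CPM in db/+ and 54.6, 43.8 and 84.3 in db/db, where the third mouse exceeded all controls (log2 fold change -0.42, SE 0.29, adjusted p = 0.421). *Mlxipl* stood at 24.9, 22.2 and 32.5 CPM in db/+ and at 15.7, 22.5 and 13.2 in db/db, overlapping in 1 library each (log2 fold change -0.62, SE 0.27, adjusted p = 0.198). *Insig1* was the regulator with a positive value, from 13.9, 13.4 and 10.01 CPM in db/+ to 14.2, 15.9 and 14.8 in db/db (log2 fold change 0.27, SE 0.23, adjusted p = 0.531).

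In STZ-HFD the regulators also gave 0 calls by limma, with 1 higher and 3 lower at an unadjusted p under 0.05 (8.34% and 9.54% of all genes), and edgeR and DESeq2 called 0 members. Of all 16915 genes, edgeR called 6 higher and 23 lower in this contrast, and DESeq2 123 and 154. *Mlxipl* had 36.8, 31.5, 22.6 and 25.6 CPM in Con+Veh and 20.1, 53.8, 50.3 and 53.2 in STZ-HFD. Replicates 2 to 4 of STZ-HFD lay above all controls and replicate 1 lay below them. The value was a log2 fold change of 0.94 (SE 0.24, adjusted p = 0.0361), past the threshold on p and short of the fold minimum, and without both libraries of lowest weight it was 1.10 (adjusted p = 0.0103). *Srebf1* was spread over 81.7, 44.1, 63.8 and 36.8 CPM in Con+Veh and 13.4, 39.96, 33.05 and 41.6 in STZ-HFD (log2 fold change -0.62, SE 0.27, adjusted p = 0.232). For *Srebf2* the libraries held 64.3, 34.9, 60.4 and 85.01 CPM in Con+Veh and 29.2, 66.2, 36.3 and 36.5 in STZ-HFD (log2 fold change -0.72, SE 0.24, adjusted p = 0.119). *Insig1* read 6.06, 11.5, 15.98 and 15.9 CPM in Con+Veh and 5.84, 8.77, 8.39 and 9.96 in STZ-HFD (log2 fold change -0.73, SE 0.23, adjusted p = 0.0952). The groups overlapped for these 3 regulators, and Con+Veh replicate 1 was the lowest control for *Insig1* and the highest for *Srebf1*. Without both libraries of lowest weight, *Insig1* was at -0.78 (adjusted p = 0.0452) and *Srebf1* at -0.51 (adjusted p = 0.257).

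In the fatty acid branch of db/db discs, *Thrsp* and *Elovl5* rose, and no other of the 13 members was called. *Thrsp* encodes a nuclear protein that is induced with lipogenesis (ENSMUSG00000035686, GRCm38 chromosome 7, 97412938 to 97417730, minus strand), and *Elovl5* encodes an elongase of polyunsaturated fatty acids (ENSMUSG00000032349, chromosome 9, 77917364 to 77984519, plus strand). *Thrsp* had 4.41, 3.08 and 3.26 CPM in db/+ (3.58 ± 0.722, SD, n = 3) and 9.22, 13.1 and 6.21 in db/db (9.51 ± 3.45, n = 3), so that every db/db library exceeded every control. The difference was a log2 fold change of 1.38 (SE 0.30, adjusted p = 0.0303). *Elovl5* had 26.6, 22.6 and 15.7 CPM in db/+ (21.6 ± 5.53) and 48.6, 35.6 and 45.6 in db/db (43.3 ± 6.79), again without overlap. It passed both limits narrowly, with a log2 fold change of 1.00 (SE 0.25, adjusted p = 0.048). This rise was seen in the gene counts alone. The deposited transcript counts (Salmon), summed per gene, held 5, 1 and 0 for *Elovl5* in db/+ and 2, 0 and 0 in db/db. These were too few for a test. The 2 calls made 2 of 32 members higher, where 1.23% of all genes were called higher, and 0 lower, where 0.432% were.

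*Scd1* had the second largest value of the branch and was not called. It stood at 1075, 648 and 853 CPM in db/+ and 1705, 3722 and 1477 in db/db, with a log2 fold change of 1.35 (SE 0.49, adjusted p = 0.134). All db/db libraries lay above the controls, and db/db replicate 2 was the highest. *Acly*, *Me1* (cytosolic malic enzyme, a source of NADPH) and *Elovl6* were likewise higher in each db/db library than in each control, with log2 fold changes of 0.35, 0.73 and 0.37 that did not pass. *Fasn* and *Fads2* were lower in each db/db library (-0.33 and -0.65, adjusted p = 0.53 and 0.0757). Groups did not overlap for 10 members above and 6 below the controls in all, where 14.1% and 11.7% of the tested genes did so. The branch as a whole had no common direction, with 7 members above 0 and 6 below (47.3% and 52.7% of all genes) and a median log2 fold change of 0.16, against -0.043 over all genes. *Acaca*, *Acss2*, *Acacb*, *Scd2* and *Fads1*, the remaining members, overlapped between groups with log2 fold changes from -0.63 to 0.16.

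Adipocyte markers were mixed in the db mice. Of 12 such markers, 9 lay above 0 and 3 below (*Cfd* -0.60, *Car3* -0.66 and *Cidea* -0.46). In db/db 4 were called higher and 0 lower, namely *Adipoq* (1.67), *Plin1* (1.73), *Fabp4* (1.36) and *Retn* (2.75, log2 fold changes). These 4 lay higher in every db/db library than in every control. The summed level of the list was 1079 to 4252 CPM in db/+ and 1410 to 1638 in db/db. *Car3* was the largest part of this sum in every library, at 519 to 3785 CPM in db/+ and 792 to 1002 in db/db. The sum thus mainly followed *Car3* and not the 4 called markers. The 10 skeletal muscle markers all lay below 0 in db/db, with a summed level of 4973 to 9657 CPM in db/+ and 3220 to 5456 in db/db. At an unadjusted p under 0.05, 8 were lower, where 10.4% of all genes were. *Myh1* was called lower (log2 fold change -1.66, adjusted p = 0.0208, limma), as were 0.432% of all genes. With the adipocyte score as a covariate, *Thrsp* was at 0.66 (adjusted p = 0.644) and *Elovl5* at 0.86 (adjusted p = 0.513). That fit called 0 of all 16915 genes in the db contrast, so the loss of these 2 calls was not particular to them. In whole discs, fewer cells of a type and less RNA per cell cannot be told apart. The edgeR quasi-likelihood test gave adjusted p = 0.195 for *Thrsp* and 0.248 for *Elovl5*. Leaving out 1 library ended the *Thrsp* call for db/+ replicate 2 (adjusted p = 0.113) and replicate 3 (0.0678) and for db/db replicate 1 (0.0911) and replicate 2 (0.0904), and the *Elovl5* call lasted in 4 of 14 such fits, with adjusted p up to 0.144.

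**Figure D2:**
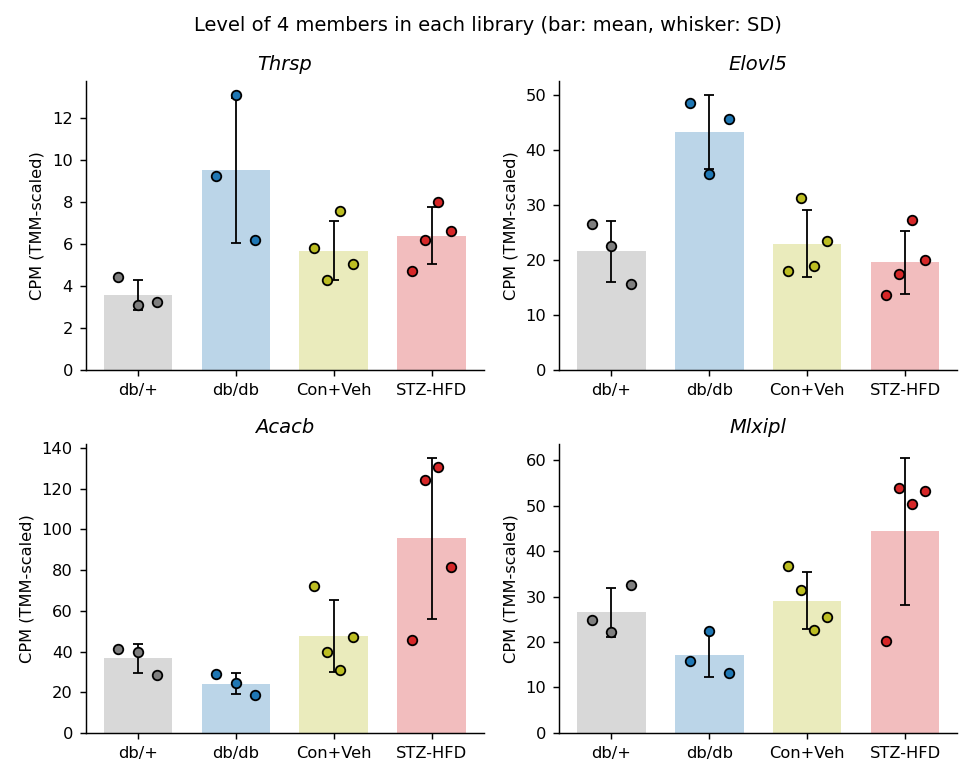
CPM of *Thrsp*, *Elovl5*, *Acacb* and *Mlxipl* in each library (points) with the group mean (bar) and SD (whisker). For *Thrsp* and *Elovl5* all db/db libraries lie above the db/+ libraries, and for *Acacb* and *Mlxipl* STZ-HFD replicate 1 (45.8 and 20.1 CPM) lies apart from the other 3.

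In the fatty acid branch of STZ-HFD discs, *Acacb* rose and no other of the 13 members was called. *Acacb* encodes acetyl-CoA carboxylase 2 (ENSMUSG00000042010, GRCm38 chromosome 5, 114146535 to 114250761, plus strand), the mitochondrial form, whose malonyl-CoA is known to restrain fatty acid oxidation in muscle and heart. It had 72.1, 39.8, 30.9 and 47.1 CPM in Con+Veh (47.5 ± 17.7, SD, n = 4) and 45.8, 124, 131 and 81.3 in STZ-HFD (95.5 ± 39.8, n = 4). STZ-HFD replicates 2 to 4 exceeded all controls, and replicate 1 lay within their range. The difference was a log2 fold change of 1.39 (SE 0.26, adjusted p = 0.0114), and 1.61 (adjusted p = 0.00464) without both libraries of lowest weight. This was 1 of 32 members called higher, where 1.3% of all genes were, and 0 were called lower, where 1.31% were.

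Several genes of chain synthesis and desaturation had values below 0 in STZ-HFD. *Elovl6*, which extends palmitate, had 6.06, 4.16, 12.97 and 14.7 CPM in Con+Veh and 9.58, 7.94, 4.07 and 4.55 in STZ-HFD, overlapping, with a log2 fold change of -1.16 (SE 0.34, adjusted p = 0.0674), and was called lower without both libraries of lowest weight (-1.33, adjusted p = 0.0385). *Me1* went the other way, from 12.5, 64.3, 15.9 and 19.8 CPM in Con+Veh to 43.5, 17.7, 41.1 and 41.2 in STZ-HFD (log2 fold change 0.89, SE 0.32, adjusted p = 0.141), with Con+Veh replicate 2 the highest of the 8 libraries. Without a fold minimum, *Fasn*, *Fads1* and *Fads2* passed on the lower side, and they are named after their values were seen. *Fasn* had 127, 71.2, 151 and 136 CPM in Con+Veh and 32.2, 97.5, 72.8 and 84.7 in STZ-HFD, where Con+Veh replicate 2 lay among the STZ-HFD values (log2 fold change -0.87, SE 0.23, adjusted p = 0.0418). *Fads2*, which starts the synthesis of long polyunsaturated fatty acids, had 23.4, 23.9, 26.3 and 24.8 CPM in Con+Veh and 12.99, 21.7, 13.4 and 15.97 in STZ-HFD without overlap (log2 fold change -0.72, SE 0.18, adjusted p = 0.035). *Fads1*, which acts after it, had 57.98, 41.8, 72.3 and 88.6 CPM in Con+Veh and 29.03, 61.8, 38.6 and 39.6 in STZ-HFD, with STZ-HFD replicate 2 inside the control range (log2 fold change -0.83, SE 0.22, adjusted p = 0.0477).

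At that rule 3 of 32 members were lower, where 1.8% of all genes were, and 2 (*Acacb* and *Mlxipl*) were higher, where 1.65% were. Over the branch, 8 of 13 members lay below 0 with a median of -0.34, against -0.036 over all genes, of which 52.8% lay below 0. At an unadjusted p under 0.05, 5 of the 13 members of the branch were lower and 2 higher, where 9.54% and 8.34% of all genes were. Groups did not overlap for *Acaca* and *Fads2*, both lower, where 2.77% of tested genes did so, and for 0 members on the higher side, where 1.97% did. *Scd1* (log2 fold change -0.08), *Elovl5* (0.000972) and *Thrsp* (0.15) lay near 0, with 95% intervals from -0.89 to 0.74, -0.48 to 0.48 and -0.47 to 0.77. *Scd2* (-0.88), *Acly* (-0.39), *Acaca* (-0.34) and *Acss2* (0.23) did not pass either.

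Skeletal muscle markers moved with *Acacb*. Of 10 such markers, 4 were called higher in STZ-HFD and 0 lower, namely *Acta1* (1.46), *Myh1* (1.11), *Myh2* (1.71) and *Tnni2* (1.10, log2 fold changes). Their summed level was 12130, 10580, 8992 and 11050 CPM in the Con+Veh libraries and 9348, 23660, 25680 and 22260 in STZ-HFD, where replicate 1 lay within the control range as it did for *Acacb*. With the muscle score as a covariate, *Acacb* was at 0.65 (adjusted p = 0.275), *Fasn* at -0.99 (0.170) and *Mlxipl* at 0.96 (0.205). The fit with the muscle score called 14 genes higher and 74 lower over all genes in the STZ contrast. Other lists moved in STZ-HFD as well, with 5 of 13 tested disc and cartilage markers and 4 of 10 macrophage markers called lower and 1 of 12 adipocyte markers (*Plin4*) higher. The part of the disc and macrophage markers in the fatty acid values was not tested. With the adipocyte score as a covariate, *Acacb* was at 1.44 (adjusted p = 0.392), *Fasn* at -1.17 (0.435) and *Fads2* at -0.62 (0.693), and 0 members were called. Over all genes, that fit called 1 higher and 13 lower in the STZ contrast. The *Acacb* call was lost with edgeR (adjusted p = 0.228) and DESeq2 (0.0802), and without Con+Veh replicate 3 (0.312), Con+Veh replicate 4 (0.0733) or STZ-HFD replicate 3 (0.170).

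**Figure D3:**
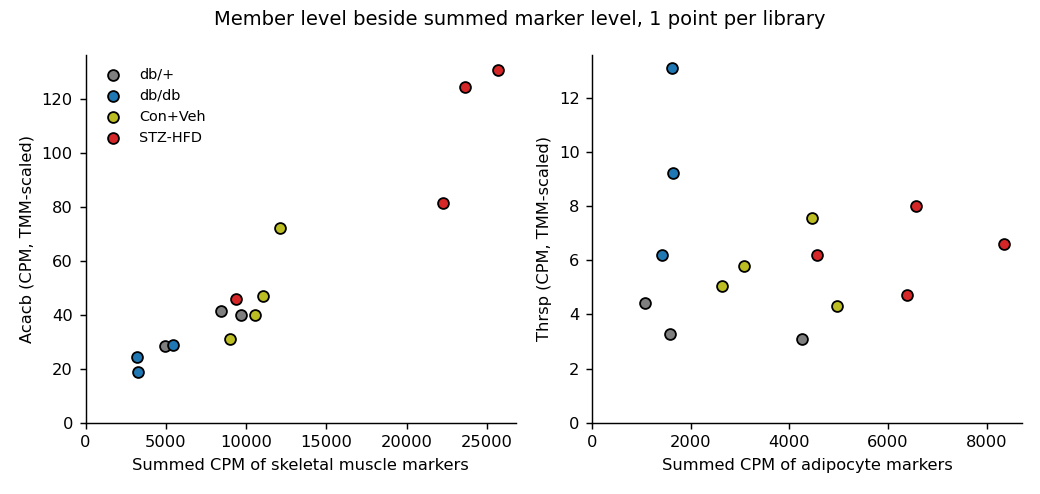
Level of *Acacb* against the summed CPM of 10 skeletal muscle markers (left) and of *Thrsp* against that of 12 adipocyte markers (right), 1 point per library coloured by group. *Car3* is the largest part of the adipocyte sum in every library. *Acacb* is highest in the 3 STZ-HFD libraries with 22260 to 25680 CPM of muscle markers, and *Thrsp* in the db/db libraries (6.21 to 13.1 CPM) lies above the db/+ libraries at 1410 to 1638 CPM of adipocyte markers, while its lowest db/db value lies among those of the STZ cohort.

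In the sterol branch no member was called in db/db. The 15 tested members split into 7 above and 8 below 0, with a median of -0.014, the smallest adjusted p being 0.059 (limma). At an unadjusted p under 0.05, 3 were higher and 1 lower, where 10.7% and 10.4% of all genes were. Both edgeR and DESeq2 called 0 sterol members. Over all genes in this contrast, edgeR called 0, and DESeq2 160 higher and 52 lower. *Cyp51*, the lanosterol demethylase, had 8.55, 8.57 and 9.51 CPM in db/+ and 17.3, 13.4 and 15.6 in db/db, with a log2 fold change of 0.79 (SE 0.21, adjusted p = 0.059). *Msmo1*, the methylsterol oxidase of the next steps, had 6.73, 5.58 and 6.995 CPM in db/+ and 12.9, 10.4 and 13.8 in db/db (log2 fold change 0.95, SE 0.30, adjusted p = 0.0986). Both stood higher in each db/db library than in each control, as did *Hmgcs1* at the head of the pathway (log2 fold change 0.70). *Mvd*, which decarboxylates mevalonate diphosphate, had 9.17, 5.62 and 4.82 CPM in db/+ and 3.12, 2.61 and 3.57 in db/db, with all db/db libraries lower (log2 fold change -1.03, SE 0.34, adjusted p = 0.106). The groups did not overlap on the lower side for *Mvk* (-0.49) and *Dhcr7* (-0.42), the mevalonate kinase and the last reductase of the pathway. The other 9 tested members had log2 fold changes from -0.46 to 0.36 and overlapped. Summed over the branch, the level was 128 to 162 CPM in db/+ and 146 to 178 in db/db.

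The values of the db comparison varied with the GC content of the genes. Across the 32 tested members, the Spearman correlation of log2 fold change with GC content was -0.694, and across 16899 genes it was -0.428. These points share libraries and genes are not independent replicates. The 15 members above 0 had a median GC content of 45.8% and the 17 below 0 one of 52.8%. In STZ-HFD the correlations were 0.217 over the members and -0.0807 over all genes. With the GC trend of each library removed, *Srebf1* was at -0.28 and *Srebf2* at 0.02, *Mlxipl* at -0.24, *Fasn* at 0.11 (against -0.33 before), *Mvd* at -0.59 and *Elovl5* at 0.81 (adjusted p = 0.113), while *Thrsp* stayed called at 1.56 (adjusted p = 0.0201). *Cyp51*, *Msmo1* and *Hmgcs1* then stood at 0.69, 0.76 and 0.44. The GC content was 43.1% in *Hmgcs1*, 44.8% in *Elovl5*, 52.0% in *Thrsp*, 58.4% in *Srebf1* and 59.0% in *Mvd*.

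In STZ-HFD no sterol member was called, and 13 of 15 lay below 0 with a median of -0.27, against 52.8% of all genes below 0 and a median of -0.036. The median turned to 0.11 when gene totals were taken from the transcript table. Some members had few counts there, with 0 to 7 per library of this cohort for *Mvk* and 1 to 25 for *Ebp*. At an unadjusted p under 0.05, 3 of 15 were lower and 0 higher, where 9.54% and 8.34% of all genes were. The smallest adjusted p was 0.0687 (limma), and edgeR and DESeq2 called 0 members. Over all 16915 genes in this contrast, edgeR called 6 higher and 23 lower, and DESeq2 123 and 154. *Sqle*, squalene epoxidase and a rate-limiting step, had 3.64, 10.1, 12.7 and 15.6 CPM in Con+Veh and 5.18, 6.71, 5.71 and 7.82 in STZ-HFD (log2 fold change -0.89, SE 0.29, adjusted p = 0.102). *Lss*, lanosterol synthase, had 10.6, 8.25, 17.1 and 12.5 CPM in Con+Veh and 7.69, 9.32, 5.44 and 8.68 in STZ-HFD (log2 fold change -0.94, SE 0.28, adjusted p = 0.0687). For *Sqle*, Con+Veh replicate 1 was the lowest of the 8 libraries and the other controls lay above all STZ-HFD libraries, and for *Lss* Con+Veh replicate 2 lay among the STZ-HFD values. *Stard4*, which carries sterols in the cytosol, had 1.85, 3.35, 2.63 and 1.90 CPM in Con+Veh and 3.33, 1.34, 1.43 and 1.34 in STZ-HFD, where replicate 1 was near the highest control and the other 3 were below all controls (log2 fold change -0.73, SE 0.43, adjusted p = 0.396). Without both libraries of lowest weight, *Sqle* was at -0.9988 (adjusted p = 0.0364), just short of the fold minimum, and *Stard4* at -0.86 (adjusted p = 0.303). *Hmgcs1*, the third member past an unadjusted p of 0.05, had 21.3, 26.8, 48.8 and 65.1 CPM in Con+Veh and 44.9, 31.1, 36.3 and 22 in STZ-HFD (log2 fold change -0.71, SE 0.26, adjusted p = 0.158). *Mvd* (0.64) and *Pmvk* (0.36) were above 0, and the remaining 9 members ran from -0.72 (*Hsd17b7*) to -0.081 (*Ebp*). Summed over the branch, the level was 87.4 to 188 CPM in Con+Veh and 116 to 137 in STZ-HFD, so the groups overlapped.

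**Figure D4:**
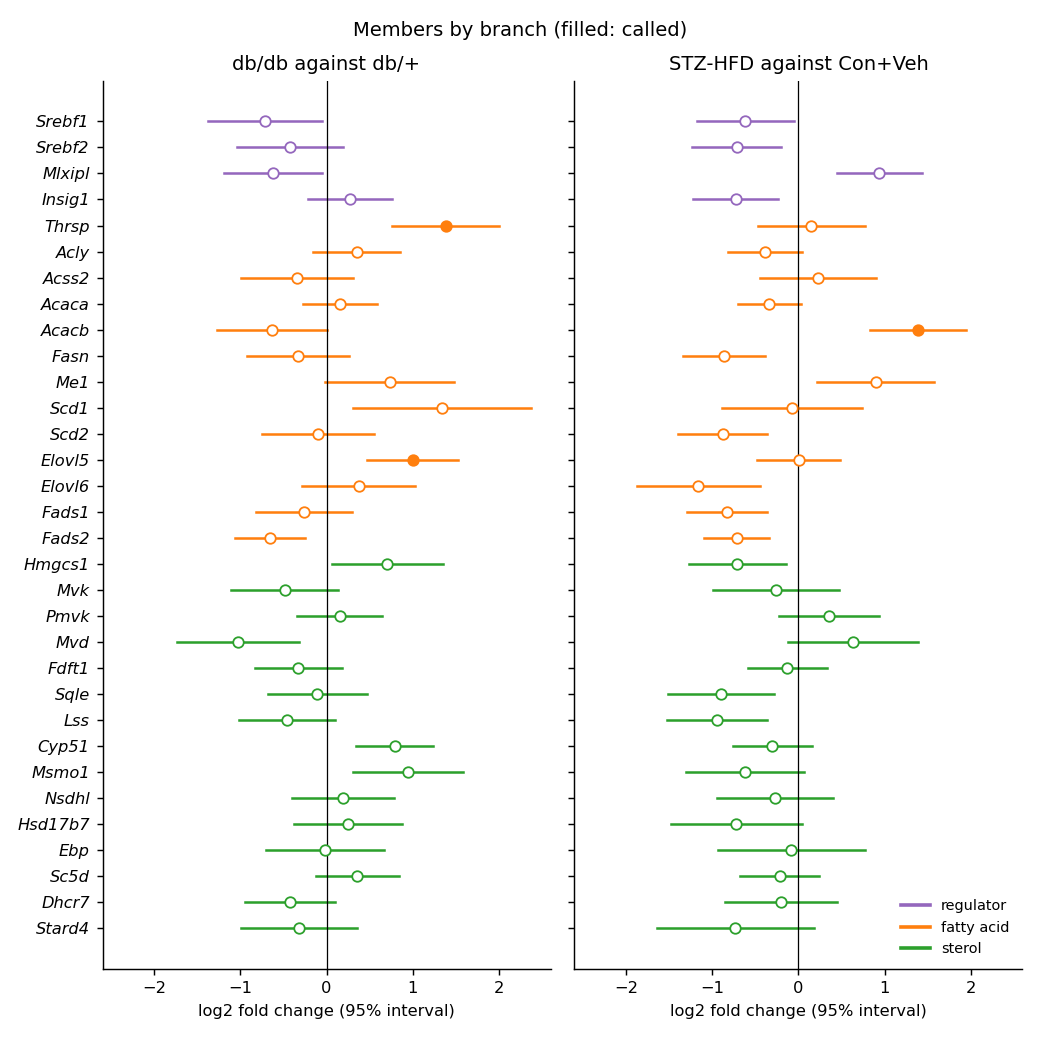
Log2 fold change of the 32 tested members with its 95% interval, by branch, in db/db against db/+ (left) and STZ-HFD against Con+Veh (right), where filled points are called. Only *Thrsp* and *Elovl5* (left) and *Acacb* (right) are filled, and 13 of 15 sterol members lie below 0 on the right.

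The difference between the 2 models was tested as the log2 fold change in db/db minus that in STZ-HFD. It was called for 2 of 32 members, both lower, where 0.952% of all genes were called lower, 0.816% higher and 1.77% in either direction. For *Acacb* the difference was -2.02 (SE 0.40, adjusted p = 0.0236), from -0.63 in db/db and 1.39 in STZ-HFD. For *Mlxipl* (ENSMUSG00000005373, chromosome 5, 135089890 to 135138382, plus strand) it was -1.56 (SE 0.36, adjusted p = 0.0380), from -0.62 and 0.94. In the db libraries *Acacb* had 41.4, 39.9 and 28.4 CPM in db/+ and 28.9, 24.5 and 18.7 in db/db, and 1 db/db library overlapped the controls. For *Thrsp* and *Elovl5*, called in db/db alone, the difference did not pass (adjusted p = 0.133 for both), so their response was not shown to differ between the models. In the sterol branch the smallest adjusted p of the difference was 0.0719, for *Cyp51*. The muscle markers differed in the same direction, with 4 of 10 called lower, and with the muscle score as a covariate the *Acacb* difference was -0.50 (adjusted p = 0.647) and that of *Mlxipl* -1.58 (0.213). Neither was called by edgeR (adjusted p = 0.242 and 0.312), and the *Mlxipl* call lasted in 4 and the *Acacb* call in 9 of 14 fits that left out 1 library, with Con+Veh replicate 3 giving the highest adjusted p (0.187 and 0.142).

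**Figure D5:**
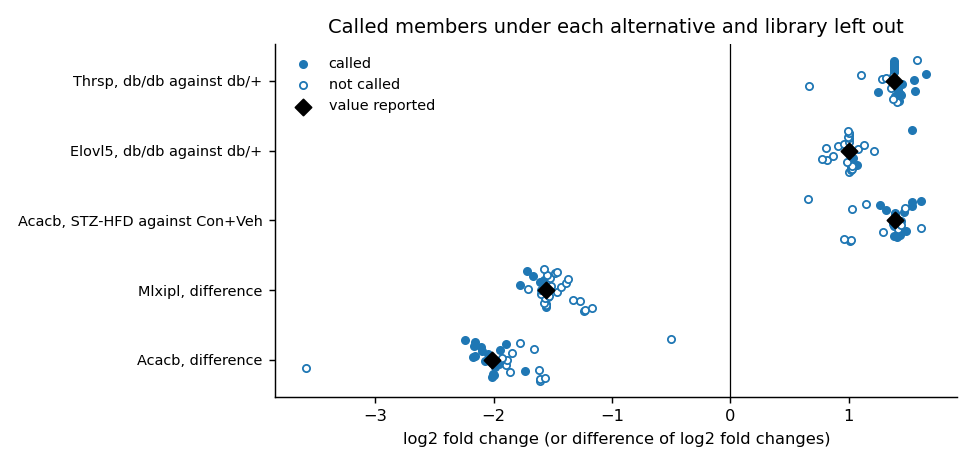
Log2 fold changes of the called members under each alternative and each library left out (small points, filled where called) beside the value reported (diamond). All points keep their sign, and *Acacb* ranges from 0.65 to 1.61 in STZ-HFD.

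The 28 other genes of the pathways, taken from a list of regulators, elongation and esterification enzymes and late sterol enzymes, were all tested. In db/db 0 were called by limma, where 1.66% of all genes were, and 0 by edgeR, which called 0 of all genes. At an unadjusted p under 0.05 (limma), 6 of the 28 were higher and 2 lower, where 10.7% and 10.4% of all genes were. In STZ-HFD 1 of the 28 was called higher, where 1.3% of all genes were. It was *Gpam*, which starts glycerolipid synthesis (ENSMUSG00000024978, chromosome 19, 55067268 to 55127238, minus strand). It had 43.2, 34.4, 23.7 and 25.6 CPM in Con+Veh and 33.05, 84.6, 95.01 and 61.1 in STZ-HFD, with replicate 1 again inside the control range, and a log2 fold change of 1.46 (SE 0.25, adjusted p = 0.00658). With the muscle score as a covariate it was at 0.80 (adjusted p = 0.172), and with edgeR at 1.11 (adjusted p = 0.179). The 7 other regulators, among them *Scap* and the proteases that release SREBP, gave 0 calls in either model, with medians of -0.084 in the db contrast and 0.0022 in the STZ contrast. The 6 other sterol genes gave 0 calls too, with medians of 0.028 and -0.062.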

How the data were processed

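RNA was sequenced from pooled tail discs of 14 mice. The authors aligned the reads with STAR to Ensembl release 101 (GRCm38), deposited raw counts per gene made with featureCounts, and deposited expected counts per transcript made with Salmon, which entered 1 alternative here after summing per gene and rounding. The strand setting is not given in the sources used here. Of 55774 lines in the gene table, 287 repeat an identifier with identical values and were used once, leaving 55487 genes. Positions, exon lengths and GC content were taken from GENCODE M21 (GRCm38).

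The gene counts were analysed in R 4.3.3 with edgeR 4.0.16 and limma 3.58.1. The filter asked for more than 1 CPM in 3 or more libraries and left 16915 genes. The test was limma's voomWithQualityWeights with TMM factors and a mean for each of 4 groups over all 14 libraries, as the study's methods name it, with contrasts within each model and their difference. Calls needed a Benjamini-Hochberg adjusted p below 0.05 together with a log2 fold change of 1 or more in size. Tests were run first on simulated counts. Total counts were 16076908 to 58943169 per library, at which 3 counts correspond to 0.0431 to 0.163 CPM, for counting error only. Libraries are separate mice by their labels, and no replicate pair was a repeat (chi-square per degree of freedom 47.2 to 499 over 18 pairs).

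Members, gene lists and tests were chosen with earlier results of these data known. Values in every library are given for the regulators, for called members and for the 3 members of each branch and contrast with the largest absolute log2 fold change. Lists of adipocyte, skeletal muscle, Schwann cell, macrophage, neutrophil and marrow, keratinocyte and sebaceous gland, and disc and cartilage markers were described by called genes and summed CPM. Alternatives used DESeq2 1.42.0, edgeR's quasi-likelihood test, RLE size factors, voom without weights, no filter or filterByExpr, each model alone, a replicate block, removal of the GC trend over 20 bins, both together, transcript totals, removal of ribosomal RNA genes, adipocyte or Schwann cell score as a covariate, no fold minimum, omission of the pair of libraries with the same name ending, and omission of each library. Leaving out both libraries of lowest weight and a skeletal muscle score as a covariate were added after seeing the data. Promoter windows were taken from RefSeq (GRCm38.p6), and protein sequences were not used here.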

Additional observations from a re-analysis of the deposited data

Results flagged for a closer look

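In 6 of 64 groups of 4 libraries, 1 library lay far from the other 3 in the level of a member, as the gap to its nearest neighbour over the whole range of log2 CPM (above the limit of Dixon's test at the 95% level). Chance flags about 1 in 20 groups. In STZ-HFD these were *Mlxipl* (0.931), *Me1* (0.938), *Nsdhl* (0.896) and *Stard4* (0.929). *Mlxipl* had 20.1 CPM in replicate 1 and 50.3 to 53.8 in the other 3, *Me1* 17.7 in replicate 2 against 41.1 to 43.5, *Nsdhl* 2.58 in replicate 2 against 5.67 to 6.21, and *Stard4* 3.33 in replicate 1 against 1.34 to 1.43. In Con+Veh these were *Acly* (0.853) and *Ebp* (0.848), both lowest in replicate 1, at 14.9 CPM against 37.3 to 43.7 and at 1.00 against 3.08 to 3.75. The libraries set apart were thus STZ-HFD replicate 1 for 2 members, STZ-HFD replicate 2 for 2 and Con+Veh replicate 1 for 2.

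The effects of the 2 models differed by a test of the difference itself for *Mlxipl* (-1.56 on the log2 scale, adjusted p = 0.0380) and *Acacb* (-2.02, adjusted p = 0.0236, limma). Leaving out 1 library kept the *Mlxipl* call in 4 of 14 fits (adjusted p from 0.0154 without STZ-HFD replicate 1, which stood apart in this gene, to 0.187 without Con+Veh replicate 3) and the *Acacb* call in 9 of 14 (0.0152 to 0.142). Neither was called by edgeR (adjusted p = 0.312 and 0.242).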

How the results depend on the processing

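Counts of called members are given in this order: 2 higher in the db contrast, 1 higher in the STZ contrast, 2 in the difference and 1 other pathway gene. They were 0, 0, 0 and 0 with edgeR and with voom without weights, 1, 0 and 0 with DESeq2, 0, 0, 0 and 0 with the adipocyte score and 1, 0, 0 and 0 with the muscle score. Over all genes, DESeq2 called 129 higher and 122 lower in the difference. The muscle score fit called 102 and 20 in the db contrast, and 30 and 6 in the difference. filterByExpr and the Schwann cell score each gave 1 in db/db and 1 in the difference. In the db contrast they called 184 of 24104 genes higher and 52 lower, and 69 and 15 of 16915. In the difference these were 64 and 90, and 57 and 64. Removal of the GC trend gave 1, 2 and 1, with 275 of all genes higher and 218 lower in the STZ contrast. Transcript totals gave 0, 0 and 0, with medians of -0.26 (fatty acid, db/db) and 0.11 (sterol, STZ-HFD). Of 14693 genes, that fit called 115 higher and 29 lower in the db contrast. It called 30 and 26 in the STZ contrast, and 30 and 32 in the difference. *Elovl5* had too few transcript counts to be tested there. With the adipocyte score the db/db medians were -0.11 (fatty acid) and -0.42 (sterol). No fold minimum gave 2 higher and 3 lower in STZ-HFD, and 2 other pathway genes. Without both libraries that share a name ending the difference held 1 and the other genes 2. That fit called 59 of all genes higher and 55 lower in the difference. Without both of lowest weight, db/db held 1 and STZ-HFD 2 higher and 1 lower. Over all genes that fit called 181 higher and 71 lower in the db contrast, and 320 and 270 in the STZ contrast. No filter, and each model alone, each gave 2 other genes. In the db contrast these 2 fits called 357 and 177, and 357 and 79, of all genes. In the STZ contrast they called 95 and 35, and 148 and 139.

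Same-numbered mice did not deviate together (mean correlation of -0.091 in the db cohort and -0.111 in the other, ranging from -0.28 to 0.192 and from -0.26 to -0.0422), so the numbers were not taken as pairs. With the replicate block db/db had 1 member lower, STZ-HFD 0, the difference 0 and the other genes 2, and with the block and GC removal db/db had 1 higher, STZ-HFD 0, the difference 0 and the other genes 2. Over all genes, the block with GC removal called 653 higher and 401 lower in the db contrast, and 1 and 1 in the STZ contrast.

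Leaving out 1 library gave 0 to 2 higher in db/db, 0 to 2 higher and 0 to 2 lower in STZ-HFD, 0 to 3 in the difference, 0 to 2 other genes, and medians of 0.0011 to 0.30 (fatty acid) and -0.28 to 0.19 (sterol) in db/db and -0.42 to -0.27 and -0.46 to -0.11 in STZ-HFD. In db/db 0 members were lower in any of them. Values that changed sign were *Srebf2* in db/db with GC removed (0.016), *Insig1* (-0.11) and *Msmo1* (-0.24) in db/db and *Me1* in STZ-HFD (-1.05) with transcript totals, and *Insig1* in db/db with the adipocyte score (-0.38). The change of *Me1* rested on very few transcript counts, 0 to 9 per library in Con+Veh and 0 to 3 in STZ-HFD. Of the values of named genes that kept their sign, 632 kept their side of the threshold, 84 lost the call and 12 gained it. Most were not called in the reported fit, and staying uncalled counts as kept. With 1 library left out, the call lasted in 10 of 14 fits for *Thrsp*, 4 for *Elovl5*, 11 for *Acacb* and 11 for *Gpam*. Under the other alternatives it lasted in 13 of 18, 7 of 17, 10 of 18 and 12 of 18. For the difference it lasted there in 5 of 17 for *Mlxipl* and 9 of 17 for *Acacb*. The cause was not tested. Over all genes, edgeR called 0 (1891 at an unadjusted p under 0.05) in the db contrast and 6 higher and 23 lower in the STZ contrast, where limma called 281 and 441. Voom without weights called 7 higher and 2 lower, and 3 and 16. The fit with the adipocyte score called 0 and 0, and 1 and 13. The block called 796 and 688, and 2 and 4. GC removal took the db/db split from 208 higher and 73 lower to 161 and 23. The filter on low counts left *Idi1* and *Fdps* out of the reported test.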

Other observations

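Schwann cell, neutrophil and marrow, and keratinocyte and sebaceous gland markers were measured beside the members, and none was called in either model by limma. Of all genes, 10.7% were higher and 10.4% lower at an unadjusted p under 0.05 in db/db, and 8.34% and 9.54% in STZ-HFD. For Schwann cells, known for sterol synthesis when they form myelin, all 10 markers were tested, with a median log2 fold change of -0.56 in db/db (0 at an unadjusted p under 0.05) and -0.82 in STZ-HFD (1 lower). Their summed level overlapped between groups, at 539 to 2914 CPM in db/+, 589 to 1116 in db/db, 336 to 2782 in Con+Veh and 494 to 2266 in STZ-HFD. Of 8 neutrophil and marrow markers 3 were tested, with 1 higher in db/db and 1 lower in STZ-HFD at an unadjusted p under 0.05. All 8 summed to 7.18 to 17.3 CPM in db/+, 18.4 to 49.4 in db/db, 3.37 to 32.6 in Con+Veh and 4.37 to 6.74 in STZ-HFD, and the difference between the models was called higher for 1 of 3. Of 11 keratinocyte and sebaceous gland markers 7 were tested, with 1 higher in db/db and 0 in STZ-HFD at an unadjusted p under 0.05, and all 11 summed to 27.7 to 84.5, 39.7 to 54.5, 31.3 to 142.5 and 57.6 to 131.8 CPM in the same order of groups. Of 10 macrophage markers, 0 were called in db/db, and the difference between the models was called higher for 2. The members' calls with a Schwann cell score as a covariate are given among the alternatives, and the part of the other 3 lists in the members' values was not tested.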
